A study of Homo sapiens with 4 samples.

Results

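The genes of the proteasome, the protease complex that degrades ubiquitin-tagged proteins, were followed in naive NB4 cells and in an arsenic trioxide (ATO) resistant NB4 line. Members were chosen by the gene name that the array gives for a probe, taking the numbered PSMA, PSMB, PSMC, PSMD, PSME, PSMF and PSMG names and leaving the inducible beta subunits PSMB8, PSMB9 and PSMB10 for a comparison. This found 64 of 41000 probes, with 44 of 30811 gene names. PSMC3IP, a recombination factor that binds PSMC3, is no subunit and was set apart, which left 43 proteasome genes. PSMA8, an alpha subunit known from the testis, was not well above background on any array and was not tested. The other 42 genes were among 20833 genes tested, and each of their probes was well above background on all 4 arrays. PSMG4 was not analysed here.

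NB4 is an established acute promyelocytic leukemia line that carries the PML-RARA fusion. Both groups were NB4 cells grown in RPMI with FBS, 2 flasks of the naive line and 2 of the ATO resistant line, each flask on 1 Agilent array and all arrays on 1 slide. The resistant cells had been kept off ATO for 1 week, and no source used here puts either line under the drug when RNA was taken. The resistant line is 1 clone, named NB4-EV-AsR1 in the methods and NB4-VM-AsR1 in the labels (taken here for the same clone), so its values describe that clone and not ATO resistance in general. Naive flasks took the first slide positions and resistant flasks the last, and position and line cannot be told apart. Values are log2 signals relative to the 75th percentile of their array, on which a difference of 1 is 2-fold, and levels of separate probes are not compared, apart from sums over marker lists.

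The complete proteasome joins a 20S core particle to 19S regulatory particles. Rings of alpha subunits gate the core and rings of beta subunits hold the proteolytic sites, while the ATPases of the 19S base unfold substrates and its non-ATPase subunits bind and remove ubiquitin chains. In APL cells ATO drives SUMO and ubiquitin conjugation of PML-RARA, which the proteasome then degrades. Subunit genes are known to be raised together by NRF1 (NFE2L1) when proteasome activity falls short.

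The cell type label was read from marker genes. All arrays had 7 of the 8 promyelocyte markers well above background, and the exception, ELANE, reached it on 1 of the 2 naive arrays. Their summed linear signal was 138 and 124 in the naive and 157 and 188 in the resistant flasks, with the brightest probe, that of myeloperoxidase (MPO), saturated on every array. The erythroid list summed to at most 0.108 and HBB was below background on all arrays, as were COL1A1, COL1A2 and COL3A1 of the stromal list. The B cell list, with MS4A1 below background everywhere, summed to 1.75 and 1.49 in the naive and 1.67 and 1.76 in the resistant flasks. The T cell list summed to 1.73 and 2.36 in the naive flasks and to 0.112 and 0.146 in the resistant flasks. The gene with its brightest probe, CD3D, cleared the background in both naive flasks but in no resistant flask. CD3D and CD3G were called lower. CD3G too was well above background in the naive flasks only, so both genes were tested only because of that line and are given no fold. CD2 had a log2 change of 1.02 and CD3E of -0.01 without a call. Further marker calls were AZU1, higher by 1.17 on the log2 scale, the B cell gene CD79B, with a change of -1.20, and ELANE, higher. ELANE is given no fold because 1 naive array was not well above background, and it was tested only because of the resistant line. The calls of CD3D, CD3G and ELANE are therefore a description only. The part of these markers in the proteasome values was not tested, and in bulk RNA fewer cells of a type and less RNA per cell cannot be told apart.

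None of the 42 proteasome genes was called changed between naive and resistant cells. A call required a Benjamini-Hochberg adjusted p below 0.05 from limma over all 28221 probes tested and a change of at least 2-fold. By this rule 5.48% of all genes tested were called (2.49% higher and 2.99% lower in the resistant line) and 5.27% of probes (2.3% higher and 2.97% lower). At an unadjusted p below 0.05 the number of proteasome genes was also 0 by limma, against 19.5% of all genes, and it was 1 by the methods' t-test, PSMD7 (named after its value was seen, 14.8% of all probes had such a p by that test), with 0 after Benjamini-Hochberg adjustment. The lowest adjusted p of a proteasome gene was 0.283 in limma. The call depended on 1 flask, since without the second naive flask PSMC2 was called lower (limma, adjusted p = 0.0233) and 12 genes had an unadjusted p below 0.05, where 16.6% of all genes were called and 38% of all probes had such a p. Without the first naive flask 6 genes had such a p (35.1% of all probes), with bright local backgrounds reset 2 (17.7%) and with an intensity trend 1 (19.9%).

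The estimated changes were small beside those of other genes. Log2 changes of the 42 genes ran from -0.64 (PSMD6) to 0.37 (PSMD3), with a median of -0.03 against -0.01 over all genes tested and an SD of 0.26 against 0.97. The median size of the change was 0.14 against 0.34, with 17 genes above 0 and 25 below (51.2% of all genes tested lay below). Absence of a call is not absence of a change, because the intervals were wide. For 27 of the 42 genes (64.3%, all genes tested 43.4%) the 95% interval of the change lay within 2-fold, and for the other 15 it reached beyond. Leaving out a flask in turn moved the change of 41 of the 42 genes by over 1.5 times or turned its sign at least once, with PSMD7 the exception.

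**Figure D1:**
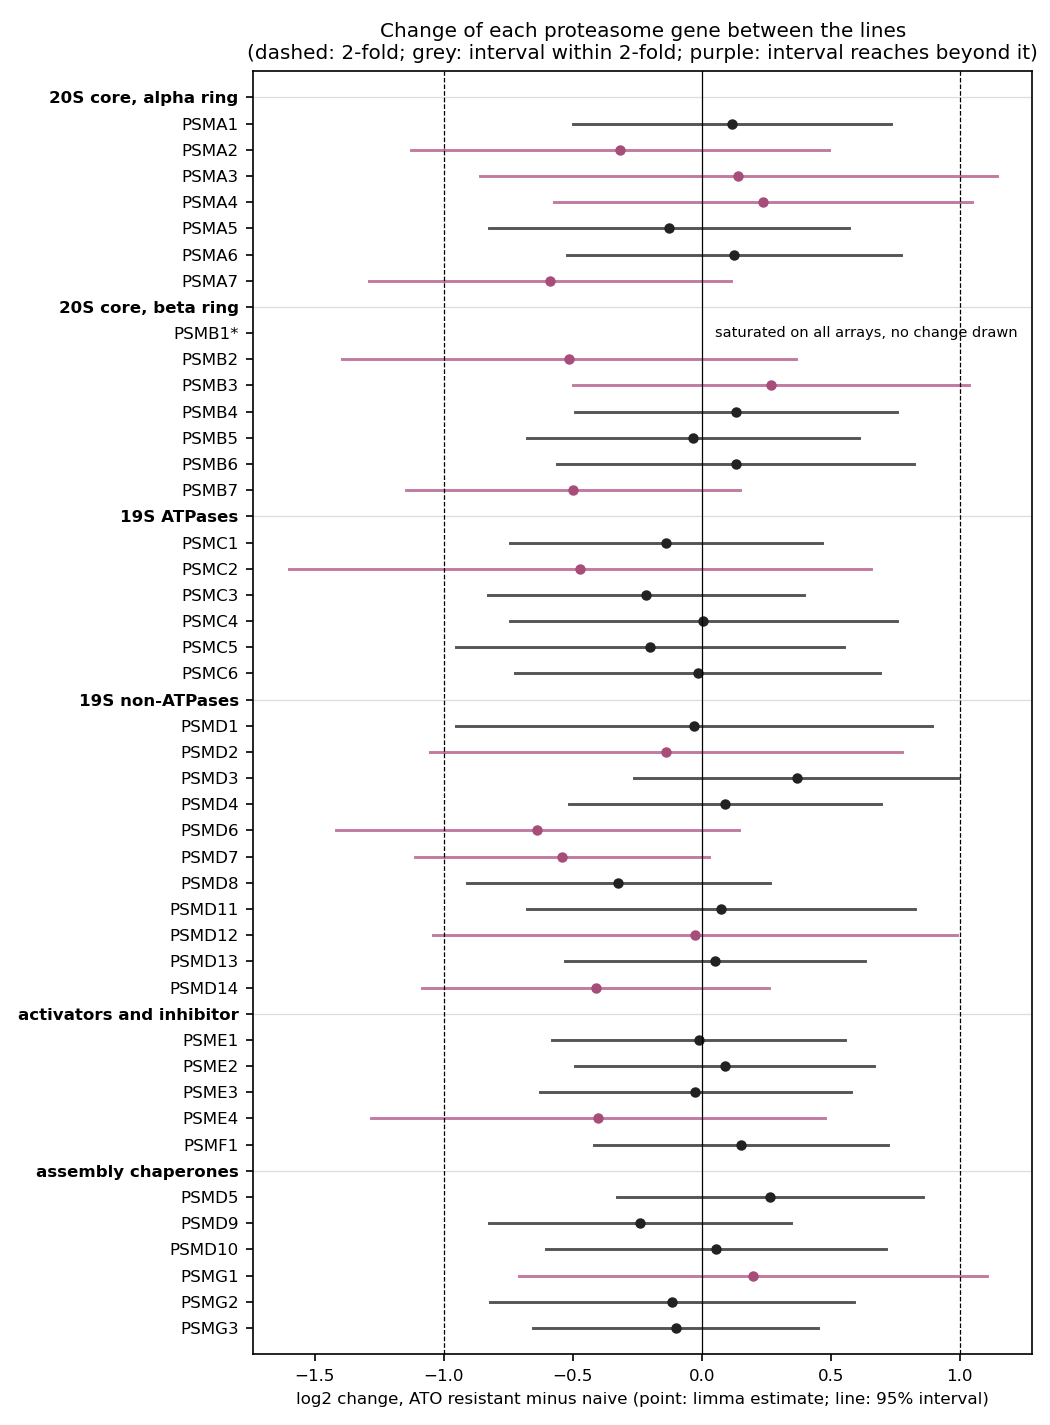
Log2 change of each proteasome gene, resistant minus naive, with its 95% interval from limma (x axis, log2 units), grouped by part of the proteasome (y axis). All 41 intervals drawn cross 0, the estimates lie between -0.64 and 0.37, and PSMB1 is left out because its probe was saturated on all arrays.

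Both resistant flasks lay below both naive flasks in 9 genes, PSMA7, PSMB2, PSMB7, PSMD6, PSMD7, PSMD8, PSMD9, PSMD14 and PSMG3 (28.3% of all genes tested did so), and above both in 3 genes, PSMD3, PSMD5 and PSMF1 (25.3%). These 12 genes stand against 53.6% of all genes tested whose groups did not overlap. In the other 30 genes the groups overlapped, and in 20 of them both resistant flasks fell between the naive flasks (21.9% of all genes). The 9 genes became 0 under scale normalization and 6 to 11 under the other alternatives, which were added after seeing the data, and the 3 higher genes became 7 under quantile normalization, 1 under normexp with an offset of 50 and 0 when every probe of each gene was averaged. Without the first naive flask the changes of the 9 genes lay between -0.45 (PSMD7) and -0.07 (PSMB2), with PSMB7 at -0.29, PSMD8 at -0.18 and PSMD14 at -0.16, and without the second between -0.997 (PSMD6) and -0.04 (PSMG3).

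The larger pattern lay between the naive flasks. The first naive flask was above the second in 36 of 42 proteasome genes (43.6% of all genes tested), by a median of 0.47 on the log2 scale where all genes had a median of -0.09. The difference was at least 0.5 in 21 of the 42 genes (15.9% of all genes). All 17 genes of the 19S particle shared its direction, by 0.04 (PSMD4) to 1.22 (PSMC2). The first naive flask was the highest of the 4 arrays in 30 genes (26.6% of all genes) and the second naive flask the lowest in 21 (24.2%). Between the resistant flasks the median difference was -0.11, and in 36 genes it was smaller than between the naive flasks (72% of all genes). The naive flasks differed by more than the lines did in 31 of 42 genes (53.7% of all genes). With 1 array a flask this difference has no replicate and no test.

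Measured relative to each gene's mean, the proteasome genes had a median of 0.28 in the first naive flask, -0.19 in the second, and -0.06 and 0.00 in the resistant flasks. The spike-in controls, which are RNAs added to each sample, moved the other way, with medians of -0.85 and 0.44 in the naive and 0.22 and 0.17 in the resistant flasks over the 6 of 10 that were above background and unsaturated. In the naive flasks 28055 and 28185 probes were well above background, and in the resistant flasks 27922 and 28244. The part of array quality, RNA amount or culture state in the naive difference was not tested. It was 0.32 to 0.62 in the median under 10 alternatives chosen after seeing the data, with 33 to 39 genes in the same direction.

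**Figure D2:**
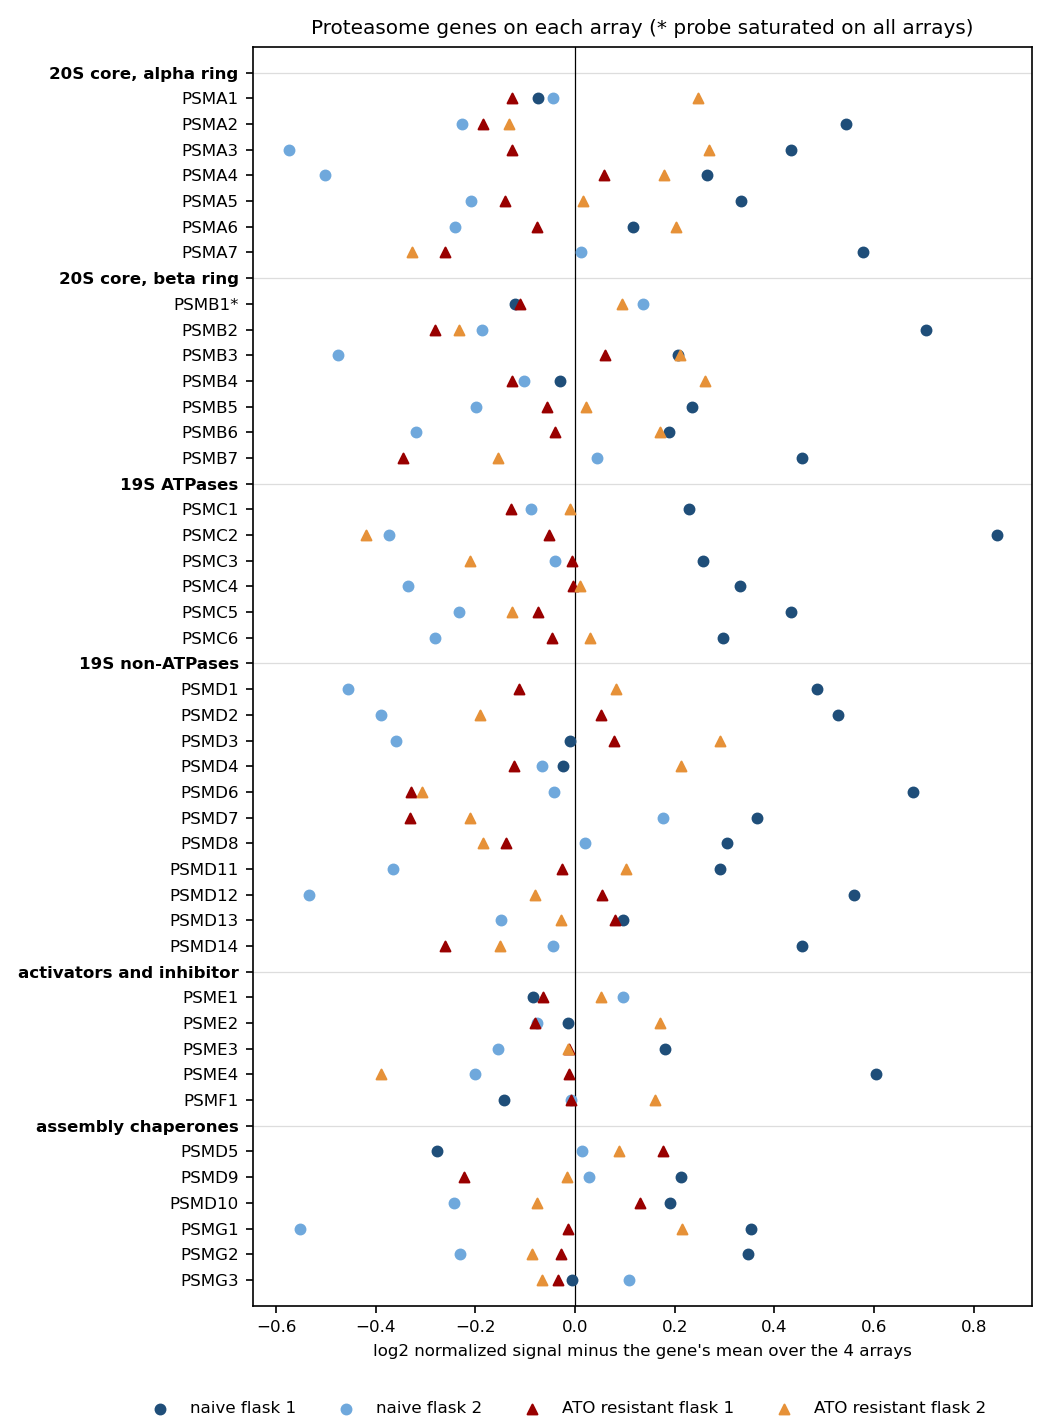
Log2 normalized signal of each proteasome gene on the 4 arrays, minus the gene's mean over the arrays (x axis), grouped by part (y axis), with circles for naive and triangles for resistant flasks. The dark circles of the first naive flask lie farthest right in 30 of 42 genes and the light circles of the second farthest left in 21, with most triangles between them.

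**Figure D3:**
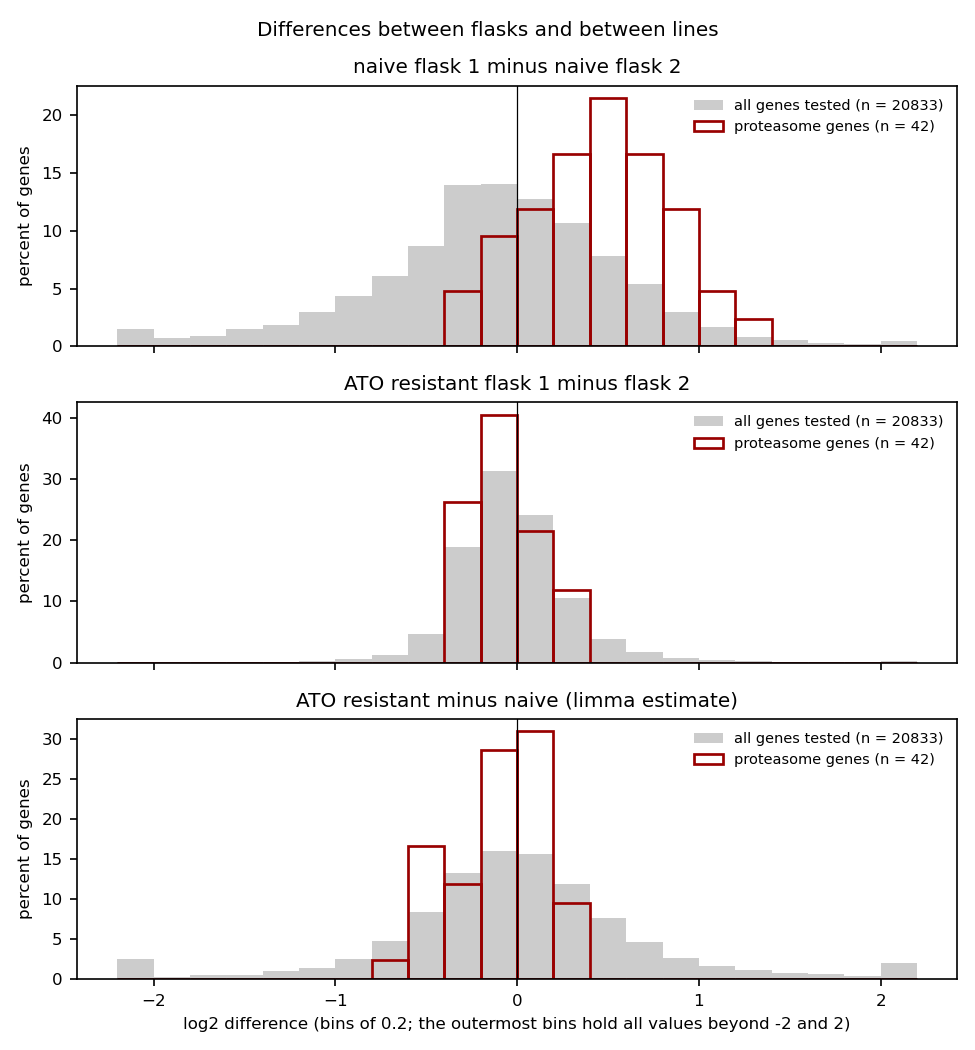
Percent of genes (y axis) by log2 difference (x axis, bins of 0.2) for all 20833 genes tested (grey) and the 42 proteasome genes (red outline), for the pair of naive flasks, the pair of resistant flasks and the lines. The proteasome genes sit to the right of all genes in the naive panel, with medians of 0.47 and -0.09, and close around 0 in the panel of the lines.

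Promoters were read because subunit genes moved together between the naive flasks. RefSeq promoters (GRCh38.p14, 250 bases before to 50 after the start) were found for 36 of the 42 genes, and 3 motifs were searched on both strands. The antioxidant response element TGACNNNGC, to which NRF1 and NRF2 bind, was present in 14 of 36 genes (38.9%, all RefSeq genes with a promoter 16.1%). The ETS site CCGGAAG was present in 13 (36.1%, all genes 12.2%) and the CCAAT box, bound by NF-Y, in 18 (50%, all genes 39.7%). A match of letters is a description and not a shown binding site. Each antioxidant response element or ETS match that lies wholly upstream of the start is printed for the genes with the highest or lowest change of their part of the proteasome, with the motif in capitals, read on the strand that carries it, and N in the motif standing for any base. The antioxidant response elements come first.
PSMA4, chr15:78540650-78540678, plus strand: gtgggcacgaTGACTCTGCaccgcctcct
PSMB3, chr17:38752627-38752655, plus strand: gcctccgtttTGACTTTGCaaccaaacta
PSMD3, chr17:39980760-39980788, plus strand: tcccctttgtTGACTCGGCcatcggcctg
PSMD5, chr9:120843038-120843066, minus strand: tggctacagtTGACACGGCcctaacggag
PSMD9, chr12:121888631-121888659, minus strand: gcgcctgtggTGACCCGGCaggagtagcg
PSMD9, chr12:121888678-121888706, plus strand: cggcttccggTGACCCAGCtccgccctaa
PSME4, chr2:53971009-53971037, plus strand: gctctgctggTGACGCTGCagccgccggg
The ETS sites follow.
PSMC2, chr7:103347610-103347636, minus strand: cccttccccaCCGGAAGtaaattgggc
PSMD6, chr3:64023515-64023541, minus strand: ggagacgggaCCGGAAGccgggccgca
PSMD9, chr12:121888671-121888697, minus strand: agctgggtcaCCGGAAGccgcgccctg
PSME4, chr2:53971057-53971083, minus strand: ccgccccgccCCGGAAGtgacttgagg
PSMF1, chr20:1118473-1118499, minus strand: cccctcaaagCCGGAAGccgggtcttg

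Over the whole promoters, the antioxidant response element stood in 5 of the 6 genes with the highest change of their part (PSMA4, PSMB3, PSMC4, PSMD3 and PSMD5, not PSMF1) and in 2 of the 5 lowest that had a promoter (PSMD9 and PSME4). The highest change of a part could be near 0, as in PSMC4 (0.01). Without the second naive flask PSMA4, PSMB3 and PSMC4 were at -0.15, -0.07 and -0.33, and PSMD3 and PSMD5 at 0.19 and 0.41. The ETS site stood in 1 of the 6 highest (PSMF1) and 4 of the 5 lowest (PSMC2, PSMD6, PSMD9 and PSME4), and the CCAAT box in 3 of the 6 and 3 of the 5. Without the first naive flask PSMC2 and PSME4 were at 0.14 and 0.001, and PSMD6 and PSMD9 at -0.28 and -0.15. Over the 36 genes the median log2 change was -0.24 in the 13 genes with an ETS site and 0.01 in the 23 without. The level of both ETS medians rested on the naive flasks, while their order did not turn. Without the first naive flask PSMC1, the middle gene of the 13, was at 0.02 and PSMG2, the middle gene of the 23, at 0.17. Without the second the middle genes were PSMD8 at -0.47 and PSMD11 at -0.25. With a CCAAT box the median was -0.16 in 18 genes and without it 0.00 in 18. With an antioxidant response element it was 0.00 in 14 genes and without it -0.08 in 22. Of the 6 genes lower without overlap that had a promoter, 5 held the ETS letters (PSMD6, PSMD7, PSMD8, PSMD9 and PSMD14) and 5 held the CCAAT box (PSMB2, PSMD6, PSMD7, PSMD8 and PSMD14), against 8 and 13 of the other 30.

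The median naive difference was 0.67 in genes with the antioxidant response element and 0.43 in those without, 0.60 against 0.34 for the CCAAT box, and 0.36 against 0.58 for the ETS site. The first naive flask was above the second in 12 of 14 genes with and 20 of 22 without the antioxidant response element, in 18 of 18 and 14 of 18 for the CCAAT box, and in 12 of 13 and 20 of 23 for the ETS site. These contrasts were seen after the values were known and carry no test.

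In the alpha ring of the 20S core, whose subunits form the gate, 7 genes were tested, with a median log2 change of 0.12. PSMA7 had the lowest change (probe at chr20:60715928-60715987 of hg19, the array header's build). Its log2 values were 3.85 and 3.28 in the naive and 3.01 and 2.94 in the resistant flasks. Both resistant flasks were lower than either naive flask. The log2 change was -0.59 (standard error 0.28, limma adjusted p = 0.334) and its 95% interval ran from -1.29 to 0.11. PSMA4 (probe at chr15:78837978-78838037) had the highest change. Its values were 4.15 and 3.38 in the naive and 3.94 and 4.06 in the resistant flasks, so that both resistant flasks lay between the naive ones, and its change was 0.24 (interval -0.57 to 1.05). The sign of PSMA4 came from the second naive flask, without which the change was -0.15.

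The beta ring, with 7 genes tested and a median of 0.05 over the 6 without PSMB1, holds the catalytic subunits PSMB5, PSMB6 and PSMB7, which carry the chymotrypsin-like, caspase-like and trypsin-like sites. PSMB5, the main target of bortezomib, had log2 values of 4.93 and 4.50 in the naive and 4.64 and 4.72 in the resistant flasks. Its resistant flasks lay between the naive flasks and its change was -0.03 (interval -0.68 to 0.61). PSMB6 had 4.53 and 4.02 in the naive and 4.30 and 4.51 in the resistant flasks, again with both resistant flasks between the naive ones. PSMB7 (probe at chr9:127115891-127115950) had 5.39 and 4.98 in the naive and 4.59 and 4.78 in the resistant flasks, without overlap, and a change of -0.50 (interval -1.15 to 0.15, limma adjusted p = 0.367). These 3 genes were picked for their catalytic role and not by the naming rule.

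Among the beta subunits without a catalytic site, PSMB2 (probe at chr1:36068879-36068938) was lowest in change. Its log2 values were 3.64 and 2.75 in the naive and 2.65 and 2.70 in the resistant flasks. The resistant flasks were both below the second naive flask, by under 0.1, and far below the first. Its change was -0.52 (standard error 0.35, limma adjusted p = 0.482, interval -1.40 to 0.37), and the other PSMB2 probe gave -0.52. The size rested on the naive flasks, with -0.07 when the first was left out and -0.96 when the second was. PSMB3 (probe at chr17:36912189-36912245) was highest, with 4.10 and 3.42 in the naive and 3.95 and 4.10 in the resistant flasks. Here the second naive flask stood below the other 3 arrays, and the change was 0.27 (interval -0.50 to 1.04). The brightest PSMB1 probe was saturated on all 4 arrays and gives no fold, although it is counted in the totals, and the other PSMB1 probe gave 0.07.

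Of the 6 ATPases of the 19S base 0 had groups without overlap (53.6% of all genes), and their median log2 change was -0.17. Without the first naive flask their changes ran from -0.07 (PSMC3) to 0.34 (PSMC4), and without the second from -1.08 (PSMC2) to -0.30 (PSMC1). PSMC2 (probe at chr7:103007997-103008056) had log2 values of 4.37 and 3.15 in the naive and 3.47 and 3.10 in the resistant flasks. The first naive flask was high and the other 3 arrays lay near each other, and this was the widest naive difference of the 42 genes. The change was -0.47 (standard error 0.45, limma adjusted p = 0.616, interval -1.60 to 0.66), with 0.14 when the first naive flask was left out and -1.08 when the second was. PSMC4 (probe at chr19:40485988-40486047) had 1.53 and 0.87 in the naive and 1.20 and 1.21 in the resistant flasks, the latter midway between the naive values, and a change of 0.01 (interval -0.74 to 0.76).

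Of the 11 non-ATPase subunits of the 19S particle, with a median of -0.03, 8 belong to the lid and had a median of -0.17. Without the first naive flask the lid changes ran from -0.45 (PSMD7) to 0.54 (PSMD3), and without the second from -0.997 (PSMD6) to 0.19 (PSMD3). PSMD6, a lid subunit (probe at chr3:64004291-64004350), had the lowest change of all 42 genes with the 4 flasks. Its log2 values were 3.96 and 3.24 in the naive and 2.96 and 2.98 in the resistant flasks. Both resistant flasks were lower than either naive flask, and nearly equal. Its change was -0.64 (standard error 0.31, limma adjusted p = 0.345, interval -1.42 to 0.14). Without the first naive flask it was -0.28, above PSMD7 (-0.45), and without the second it was -0.997, above PSMC2 (-1.08). PSMD7 (probe at chr16:74340102-74340161), the lid partner of the deubiquitinase PSMD14, had 5.57 and 5.38 in the naive and 4.88 and 4.996 in the resistant flasks. The groups stood apart with little spread, and the change was -0.54 (standard error 0.23, limma adjusted p = 0.283, interval -1.11 to 0.03).

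PSMD14 (probe at chr2:162267829-162267888) cleaves ubiquitin chains from substrates at the lid. Its log2 values were 4.15 and 3.65 in the naive and 3.43 and 3.54 in the resistant flasks, lower in both, with a change of -0.41 (interval -1.09 to 0.26). PSMD8 also had both resistant flasks below both naive flasks, with a change of -0.32. PSMD3 (probe at chr17:38154147-38154206), a lid subunit too, went the other way. It had 5.42 and 5.07 in the naive and 5.51 and 5.72 in the resistant flasks, the latter both higher, and a change of 0.37 (standard error 0.25, limma adjusted p = 0.481, interval -0.26 to 1.00), whereas its other probe gave 0.05. Of the 8 lid genes 3 had estimates above 0, PSMD3, PSMD11 and PSMD13, and no lid gene was called. Without the second naive flask PSMD11 was at -0.25 and PSMD13 at -0.07, so these signs rested on 1 flask.

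The activators PSME1 and PSME2, which form the interferon-inducible 11S cap, PSME3, the nuclear cap, PSME4 (PA200) and the inhibitor PSMF1 (PI31) had a median log2 change of -0.01. PSME4 (probe at chr2:54092559-54092618) had log2 values of 1.03 and 0.23 in the naive and 0.42 and 0.04 in the resistant flasks. The groups overlapped, and the change was -0.40 (interval -1.28 to 0.48). PSMF1 (probe at chr20:1147718-1147777) had 1.72 and 1.85 in the naive and 1.86 and 2.02 in the resistant flasks. The lower resistant flask was above the higher naive flask by under 0.01, the change was 0.15 (interval -0.42 to 0.72), and the other PSMF1 probe gave -0.22. PSME1 was saturated on 2 arrays and PSME2 on 1, so that their measured differences are compressed, and without both the median of the group was -0.03. The other PSME1 probe was unsaturated and gave -0.38 (interval -0.97 to 0.21), with both resistant flasks below both naive flasks and no call. PSME3 was the only one of the 42 genes whose tested probes spread by over 0.5, with changes of -0.03, -0.28 and -0.57 and no call for any of the 3.

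The assembly chaperones PSMG1, PSMG2 and PSMG3, which help form the alpha ring, and PSMD5, PSMD9 and PSMD10, which help form the 19S base, had a median log2 change of -0.02. PSMD9 had log2 values of 4.46 and 4.28 in the naive and 4.03 and 4.24 in the resistant flasks. The upper resistant flask came within 0.1 of the lower naive flask, and the change was -0.24 (interval -0.82 to 0.35). The other PSMD9 probe (chromosome 12) gave -0.68 (standard error 0.27, limma adjusted p = 0.271), the lowest p of the member probes. PSMD5 (probe at chr9:123579000-123579059) had -0.21 and 0.08 in the naive and 0.24 and 0.15 in the resistant flasks, higher in both, and a change of 0.26 (interval -0.33 to 0.86), whereas its other probe gave 0.01. In this group 4 of 6 genes were higher in the first naive flask (43.6% of all genes).

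Over the 15 genes with several probes (35 probes), the median spread of the log2 change between probes was 0.29, and no gene had probes that disagreed in the call. Some probes may also read copies of a gene. RefSeq lists 52 pseudogenes for 21 of the 42 genes, and the array placed 6 member probes on another chromosome than their gene. Of these, 2 PSMC6 probes and 1 probe each of PSMD12 and PSMA6 lay where a pseudogene of that gene is. The PSMC6 probes gave -0.03 and -0.06, against -0.02 for the PSMC6 probe used here, and the PSMD12 probe gave -0.14 against -0.03. The remaining 2 were both PSMD4 probes, with changes of -0.27 and 0.09, and the latter stands for PSMD4 here. The PSMA6 probe also stands for its gene, with 0.13 against 0.14 for the other PSMA6 probe. Which copy gave the signal was not tested. PSMC3IP, the recombination factor caught by the name rule, had 1.05 and 0.66 in the naive and 0.39 and 0.39 in the resistant flasks, lower in both, and was not called (log2 change -0.46, interval -1.09 to 0.16, limma adjusted p = 0.381).

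The inducible catalytic subunits replace PSMB6, PSMB7 and PSMB5 in the immunoproteasome after interferon. Limma called 1 of these 3 genes, as lower in the resistant line (2.99% of all genes tested were called lower). In 2 of the 3 both resistant flasks lay below both naive flasks (28.3% of all genes). PSMB9 (probe at chr6:32823918-32823977), the counterpart of PSMB6, had log2 values of 0.47 and 1.18 in the naive and -0.85 and -0.91 in the resistant flasks. Both resistant flasks were far below both naive flasks. PSMB9 fell by 1.70 on the log2 scale (standard error 0.31, limma adjusted p = 0.0447, interval -2.48 to -0.93). The call was near the threshold and was lost in 8 of 20 alternatives (adjusted p from 0.0013 to 1), among them those without the first resistant flask (adjusted p = 0.231), without the second (adjusted p = 0.268) and with the replicate number as a block (adjusted p = 0.0542), while the direction held in all 20.

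PSMB8, the counterpart of PSMB5, had log2 values of 1.24 and 1.63 in the naive and 0.93 and 0.96 in the resistant flasks, lower in both, and was not called (log2 change -0.49, interval -1.12 to 0.13, limma adjusted p = 0.36). PSMB10, the counterpart of PSMB7, had 2.62 and 2.86 in the naive and 2.61 and 2.91 in the resistant flasks. Its groups overlapped wholly, with a change of 0.02 (interval -0.60 to 0.64). All 3 inducible genes were lower in the first naive flask than in the second, opposite to PSMB5, PSMB6 and PSMB7. Whether the inducible and constitutive genes differed in their change was not tested.

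**Figure D4:**
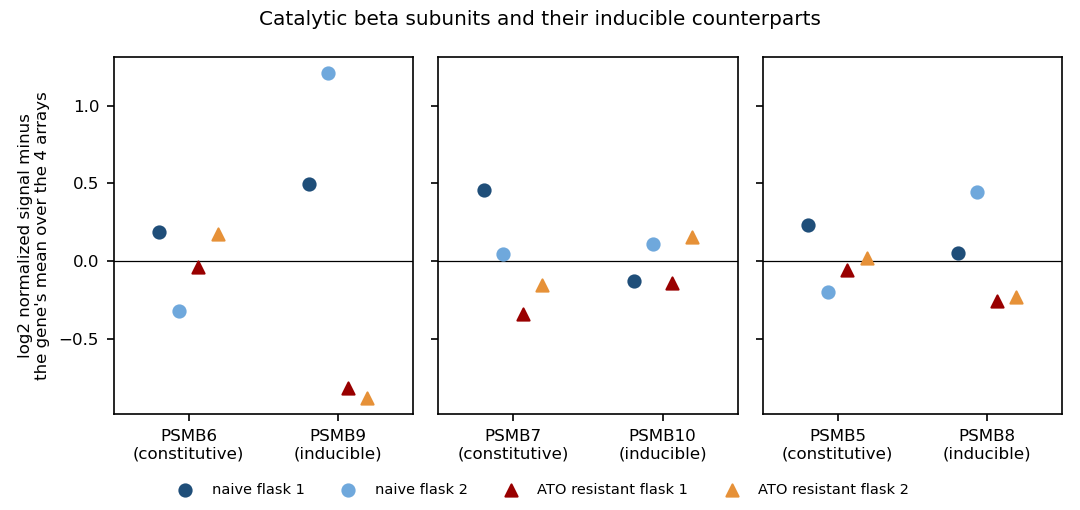
Log2 normalized signal of the catalytic beta subunits PSMB6, PSMB7 and PSMB5 and their inducible counterparts PSMB9, PSMB10 and PSMB8 on each array, minus the gene's mean over the 4 arrays (y axis), with circles for naive and triangles for resistant flasks. PSMB9 shows both resistant flasks below both naive flasks by over 1 log2 unit, and PSMB8 shows the same order with a change of -0.49.

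Genes that work beside the proteasome gave 0 calls in 3 lists. Among 18 proteasome-bound and assembly factors, limma called 0 (5.48% of all genes) and 0 had an unadjusted p below 0.05 (19.5% of all genes). ADRM1, a ubiquitin receptor of the 19S particle, was lowest with log2 values of 2.37 and 2.15 in the naive and 1.79 and 1.64 in the resistant flasks. Both resistant flasks were lower, and the change was -0.55 (interval -1.13 to 0.04). The ubiquitin ligase UBE3A was highest at 0.42 (interval -0.22 to 1.05). In this list 12 of 18 genes were higher in the first naive flask (43.6% of all genes), with a median difference of 0.17.

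Of 14 regulators of proteasome gene transcription and their processing factors 0 were called (5.48% of all genes) and 5 had an unadjusted p below 0.05 in limma (19.5% of all genes), BACH1 above 0 and DDI2, MAFF (-0.80), MAFK (-0.72) and NFE2L3 (-0.61) below. BACH1, a repressor at antioxidant response elements, was highest. It had log2 values of 0.72 and 0.64 in the naive and 1.37 and 1.59 in the resistant flasks, higher in both, with a change of 0.80 (interval 0.23 to 1.37, limma adjusted p = 0.143). DDI2, the protease that activates NRF1, was lowest, with -1.66 and -2.16 in the naive and -2.79 and -2.66 in the resistant flasks, lower in both, and a change of -0.81 (interval -1.49 to -0.14, limma adjusted p = 0.19). The other DDI2 probe gave 0.09, and with the mean over all its probes DDI2 was at -0.36. Under normexp with an offset of 50 DDI2 was at -0.30 and BACH1 at 0.49. The brightest probe of NFE2L1 was saturated on all arrays and gives no fold, and its other 3 probes gave 0.05, -0.38 and 0.19, the last of them placed by the array on chromosome 9 and the others on chromosome 17. In this list 7 of 14 genes were higher in the first naive flask (43.6% of all genes), with a median difference of 0.00.

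Of 16 genes of ubiquitin, its activation and its delivery, 3 were saturated on all arrays. Limma called 0 (5.48% of all genes) and 1 had an unadjusted p below 0.05 (19.5% of all genes). That gene, UBA6, which activates ubiquitin, was highest at 0.61 (interval 0.01 to 1.21, limma adjusted p = 0.254), and its other 2 probes gave 0.04 and -0.01. The shuttle factor UBQLN1 was lowest at -0.30 (interval -1.23 to 0.64), and its sign turned without the first naive flask. In this list 9 of 16 genes were higher in the first naive flask (43.6% of all genes), with a median difference of 0.00.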

How the data were processed

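Per the file headers, the authors extracted the scans with Feature Extraction 10.5.1.1, whose deposited processed signal is a background-subtracted intensity on a linear scale. Their deposited log2 table, with a shift to each array's 75th percentile, was used as an alternative (Pearson's r with the values computed here at least 0.9998 across probes). Other deposited intensity columns served for normexp. In R 4.3.3 log2 was taken, outlier spots and control spots were left out, the spots of each probe were averaged, and each array's 75th percentile was taken off. Probes that cleared the background in both flasks of either line were fitted in limma 3.58.1 (lmFit, eBayes), and p-values were adjusted over all of them by the Benjamini-Hochberg method. A gene was given by its tested probe with the highest mean. With 2 arrays a line the smallest exact two-sided permutation p is 0.333, and p-values measure the spread between flasks only. Arrays have no read depth, and their number limits the precision.

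Members and lists were chosen with earlier results of these data known. By rule the text names called genes, the highest and lowest change of each part or list, proteasome genes whose probes disagree in call or, by over 0.5, in sign (0 genes), and PSMC3IP. Other genes were named after their values were seen.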

Additional observations from a re-analysis of the deposited data

How the results depend on the processing

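None of the 42 proteasome genes was called in the 16 alternatives that kept the 4 flasks. Among these, normexp with an offset of 50 and the methods' t-test after adjustment called 0 probes of any gene, so they could show no proteasome call. With the second naive flask left out the lack of calls did not hold, with PSMC2 at -1.08. Their median log2 change lay between -0.09 and 0.16 in the alternatives with 4 flasks, with the highest value after scale normalization, and between -0.30 and 0.13 with a flask left out. The median of all probes was 0.08 after scale normalization and 0.13 after normexp with an offset of 50 (0.02 with bright local backgrounds reset), against -0.02. Scale normalization gave 0 genes lower in both resistant flasks, against 9. The probes called, 1487, numbered 0 in limma under normexp with an offset of 50 (929 at an unadjusted p below 0.05) but 1189 with bright local backgrounds reset, 0 by the methods' t-test after adjustment (4138 at an unadjusted p below 0.05), 760 with probes above background on all arrays, 3463 at 2-fold with no test and 728 to 4536 with a flask left out. The cause was not tested. A line left with 1 flask is taken to vary as the other line does.

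Blocking on the replicate number left 1375 probes called and 0 proteasome genes, with a median of -0.03. Same-numbered flasks correlated at 0.119 over 2 pairs, too few to show pairing. Among the 21 genes followed through the alternatives, which hold no marker gene, PSMB9 lost its call under the block.

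Of 420 values of 21 named genes, 400 kept direction and call, 8 lost it (all PSMB9), 2 gained it (DDI2 and PSMC2 without the second naive flask) and 10 turned sign. PSMF1 turned to -0.033 with the mean over all probes. Without the first naive flask PSMA7, PSMB2 and PSMD6 had changes of -0.30, -0.07 and -0.28, and without the second -0.87, -0.96 and -0.997. With a flask left out PSMA4 lay between -0.15 and 0.62, PSMB3 between -0.071 and 0.61, PSMB10 between -0.13 and 0.16, PSMC2 between -1.08 and 0.14, PSMC4 between -0.33 and 0.34, PSME4 between -0.80 and 0.00102 and UBQLN1 between -0.78 and 0.19.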
